A study of Arabidopsis thaliana with 8 samples.

Results

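*HB21*, *HB40* and *HB53* encode closely related homeodomain-leucine zipper class I (HD-ZIP I) transcription factors of *Arabidopsis thaliana*, and their transcript levels were followed in young seeds lacking the chromatin remodelers PICKLE (PKL), PICKLE-RELATED 2 (PKR2) or both. They were found by locus code, AT2G18550 for *HB21*, AT4G36740 for *HB40* and AT5G66700 for *HB53*, and are 3 of the 38209 genes in each deposited table and 3 of the 17 HD-ZIP I genes. The group was chosen because of its values in these same tables, so the levels and ratios of the 3 genes are given as a description and were not tested. RNA was sequenced from seeds of manually selfed plants of the pkr2-2;pkl-10 double mutant, the pkl-1 and pkr2-2 single mutants and Col-0, the wild-type accession whose background all 3 mutants share. The double mutant carries another *PKL* allele, pkl-10, than the pkl-1 single mutant. Seeds were labelled as 4 days after pollination (DAP), while the extraction protocol states 3 DAP, and each of the 2 biological replicates per genotype held the seeds of at least 30 siliques. Whole seeds were used, so embryo, endosperm and seed coat are mixed, and fewer cells of a type cannot be told apart from less RNA per cell.

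Proteins of the HD-ZIP families, found in plants, bind DNA through a homeodomain and pair through the adjoining leucine zipper. HB21, HB40 and HB53 are best known from axillary buds, where the TCP-type factor BRANCHED1 (BRC1) binds and activates their genes, and where they in turn raise transcription of *NCED3*, which encodes a rate-limiting enzyme of abscisic acid synthesis, so that the bud stays at rest. PKL is a CHD3 remodeler known for keeping embryonic genes silent in seedlings, together with the repressive histone mark H3K27me3.

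In the TAIR10.1 annotation, *HB21* lies on the minus strand at chr2:8049371-8051316 with 3 exons and 1 transcript of 1058 nt. *HB40* lies on the minus strand at chr4:17314453-17316441 with 3 exons and 2 transcripts of 974 and 804 nt. *HB53* lies on the plus strand at chr5:26634275-26635885 with 2 exons and 1 transcript of 941 nt. The 3 genes are thus on 3 chromosomes. Their coding sequences, of 663, 654 and 687 nt in the order *HB21*, *HB40* and *HB53*, were aligned in pairs. *HB21* and *HB40* were identical at 73.5% of aligned bases, *HB40* and *HB53* at 70.8%, and *HB21* and *HB53* at 67.3%. The longest identical run in any pair was 23 nt, between *HB40* and *HB53*. The 90 coding bases below span the end of the homeobox. They code for the third helix of the homeodomain, which lies in the DNA groove, and for residues after it, towards the adjoining leucine zipper. They include the bases that code for the part that contacts DNA, and capitals mark the 62 bases identical in all 3. The stretch was centred on the longest run identical in *HB21* and *HB40*, of 18 nt. That choice favours identical bases within it, most of all for this pair. The stretch covers coding bases 295 to 384 of *HB21*, 280 to 369 of *HB40* and 325 to 414 of *HB53*, counted from 1 at the start codon.
HB21: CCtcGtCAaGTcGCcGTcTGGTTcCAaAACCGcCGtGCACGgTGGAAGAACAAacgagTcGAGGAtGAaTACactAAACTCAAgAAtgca
HB40: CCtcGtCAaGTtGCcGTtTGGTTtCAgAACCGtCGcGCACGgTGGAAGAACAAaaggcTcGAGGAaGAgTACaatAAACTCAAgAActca
HB53: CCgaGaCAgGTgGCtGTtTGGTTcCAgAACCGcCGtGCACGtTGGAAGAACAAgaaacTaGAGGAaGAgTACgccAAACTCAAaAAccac
In this stretch, *HB21* and *HB40* shared 76 of 90 bases, *HB40* and *HB53* shared 69, and *HB21* and *HB53* shared 67.

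**Figure D1:**
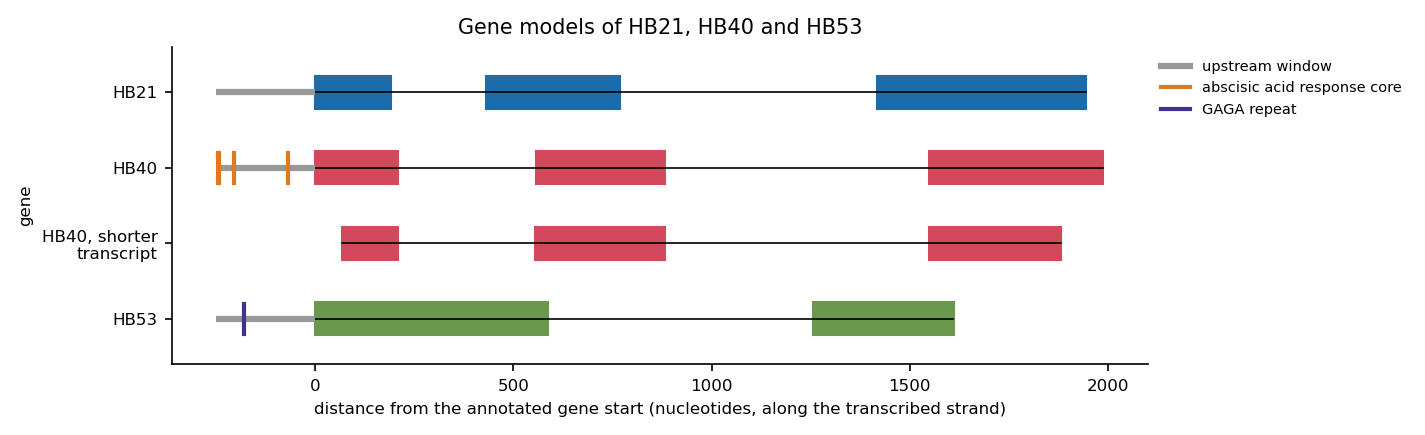
Exons (boxes) and introns (lines) of *HB21*, *HB40* with both its transcripts, and *HB53*, to scale in nucleotides from the annotated gene start, with the 250 upstream bases in grey and matches to 2 short motifs as coloured ticks. *HB21* and *HB40* have 3 exons and *HB53* has 2; the abscisic acid response core is marked upstream of *HB40* alone among the 3.

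The 250 bases upstream of each annotated start are shown because *HB21* and *HB40* had similar levels across the genotypes while *HB53* stayed near 0. Each is printed 5′ to 3′ along the strand of its gene, and capitals mark matches to the motifs searched on both strands. The windows are chr2:8051317-8051566 (minus strand) for *HB21*, chr4:17316442-17316691 (minus strand) for *HB40* and chr5:26634025-26634274 (plus strand) for *HB53*.
HB21: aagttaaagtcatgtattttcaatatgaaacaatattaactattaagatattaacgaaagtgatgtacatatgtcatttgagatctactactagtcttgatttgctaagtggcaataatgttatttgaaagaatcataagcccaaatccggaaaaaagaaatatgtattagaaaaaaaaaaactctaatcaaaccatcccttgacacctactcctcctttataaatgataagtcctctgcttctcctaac
HB40: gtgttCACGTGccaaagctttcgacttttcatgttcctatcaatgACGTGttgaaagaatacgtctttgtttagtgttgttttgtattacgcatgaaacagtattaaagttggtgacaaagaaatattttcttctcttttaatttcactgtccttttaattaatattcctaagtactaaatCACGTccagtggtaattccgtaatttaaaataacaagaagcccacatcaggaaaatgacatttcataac
HB53: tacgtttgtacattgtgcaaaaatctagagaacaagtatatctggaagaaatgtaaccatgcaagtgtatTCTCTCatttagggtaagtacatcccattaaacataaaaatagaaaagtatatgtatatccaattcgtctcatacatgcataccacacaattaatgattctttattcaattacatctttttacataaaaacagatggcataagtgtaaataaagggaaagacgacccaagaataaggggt
The motifs were CAATNATTG, which HD-ZIP I proteins bind, GGNCCC, bound by TCP factors such as BRC1, ACGTG, the core of abscisic acid response elements, and GAGAGA and AAACCCTA, described in Arabidopsis Polycomb response elements. *HB40* held ACGTG at positions -245, -244, -205 and -69 from the start, of which the matches at -245 and -244 overlap on opposite strands and together spell CACGTG. *HB53* held GAGAGA on the other strand at -180, and *HB21* held none of the 5 motifs. Of 27443 upstream windows of the same length, ACGTG occurred in 22.9%, GAGAGA in 20.6%, GGNCCC in 7.35%, AAACCCTA in 4.49% and CAATNATTG in 0.918%. A and T made up 70.4% of the window of *HB21*, 67.6% of that of *HB40* and 68.8% of that of *HB53*, against a median of 68.8% over all windows. These matches describe the letters of the windows only.

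The deposited values are in FPKM, a fragment count set relative to transcript length and sequencing depth. Each of the 5 tables holds 1 value per genotype, pooled over the 2 replicates by the authors, so the spread between replicates cannot be computed from them and no test was made here; the authors' own test columns were not used. Intervals given here are 95% counting intervals, from fragment numbers estimated from the steps between the lowest FPKM values, and they do not cover variation between replicates. By this estimate, 1 FPKM at a given length stood for 1.58 times as many fragments in the double mutant as in Col-0. The same figure was 1.22 times in pkl-1 and 0.922 times in pkr2-2. These ratios hold under the authors' scaling and are not ratios of the total fragments sequenced. The steps were less sharp in Col-0 and pkl-1 than in pkr2-2, with an interquartile range of 0.161 of the step in Col-0 and 0.173 in pkl-1 (the table of both), against 0.00165 in pkr2-2 (the table with Col-0), so fragment numbers are approximate. The targeted genes were examined as a check of the labels. *PKR2* was at 0.120 FPKM in pkr2-2;pkl-10 against 3.57 in Col-0, and at 0.168 FPKM in pkr2-2 against 3.06 in Col-0. *PKL* was at 2.44 FPKM in pkr2-2;pkl-10 against 13.6 in Col-0, but at 15.2 FPKM in pkl-1 against 12.8 in Col-0, so the transcript level does not mark the pkl-1 allele.

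*HB21* and *HB40* were both far higher in pkl-1 seeds than in Col-0 seeds. *HB21* was at 46.6 FPKM in pkl-1 (about 1688 fragments) and 2.77 FPKM in Col-0 (about 82 fragments), a ratio of 16.8 with a counting interval of 13.5 to 21.3. *HB40* was at 52.9 FPKM in pkl-1 (about 1703 fragments) and 1.70 FPKM in Col-0 (about 45 fragments), a ratio of 31.2 with an interval of 23.2 to 42.9. On the log2 scale the ratios were 4.07 for *HB21* and 4.96 for *HB40*. The change moved both genes through most of the range of seed transcripts. Among genes at 1 FPKM or more in the same genotype, *HB21* lay above 84.2% in pkl-1 and above 16.8% in Col-0, and *HB40* lay above 85.9% in pkl-1 and above 7.89% in Col-0.

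*HB53* was near the limit of detection. It was at 0.0608 FPKM in pkl-1, about 2 fragments, and was listed at 0 in Col-0, where 3 fragments would have given 0.120 FPKM. No ratio is given for it here, since both values lie at or under that limit. A gene was counted as higher or lower when it had at least 1 FPKM in at least 1 of the genotypes compared and a log2 ratio past 2 in either direction. By this rule 2 of the 3 genes passed the FPKM minimum in the pkl-1 table and both were counted as higher, beside 3.77% of the 18645 genes that passed; 2.70% were counted as lower. Since the genes were chosen on these values, nothing is read from that comparison.

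**Figure D2:**
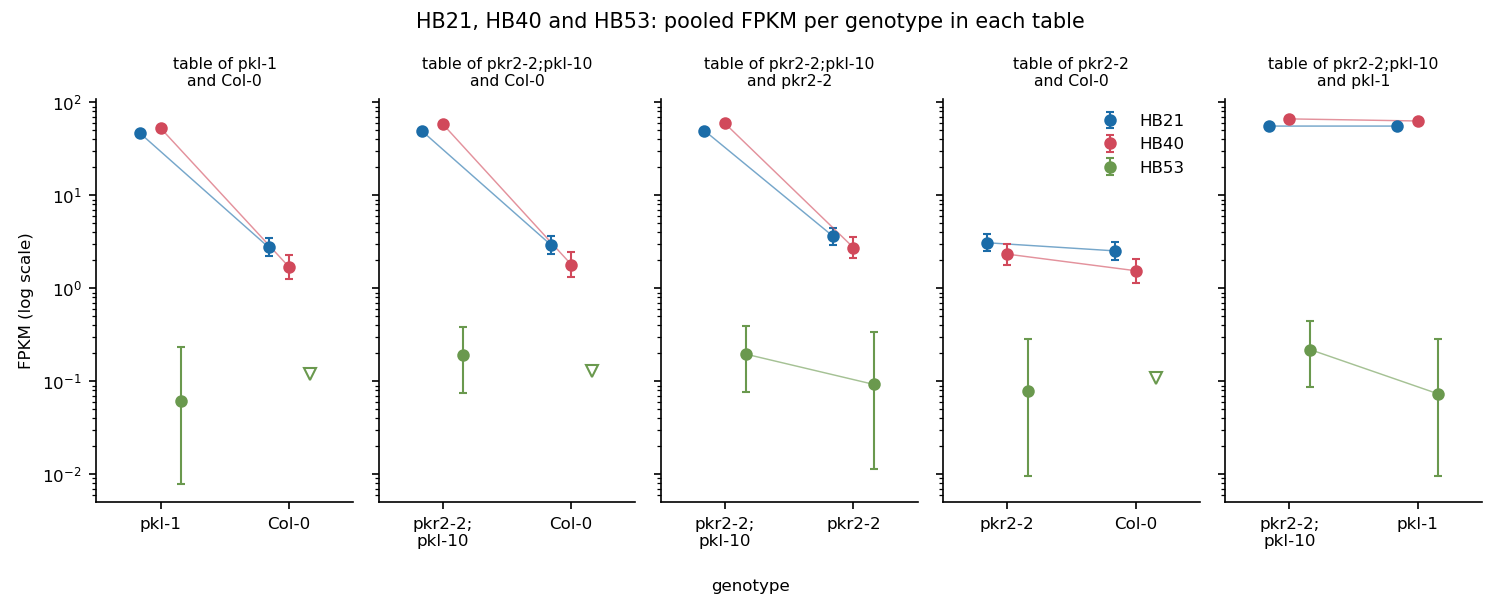
FPKM (log scale) of *HB21* (blue), *HB40* (red) and *HB53* (green) in each of the 5 deposited tables, 1 pooled value per genotype. Bars are 95% counting intervals and open triangles mark the FPKM of 3 fragments where *HB53* was listed at 0; *HB21* and *HB40* sit between 46.6 and 66.5 FPKM in both genotypes that lack *PKL* function, and between 1.55 and 3.64 FPKM in pkr2-2 and Col-0.

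In the double mutant, levels of *HB21* and *HB40* stood about as far above Col-0 as in pkl-1. *HB21* was at 48.9 FPKM in pkr2-2;pkl-10, against 2.95 FPKM in Col-0, a ratio of 16.6 (13.3 to 21.0) and a log2 ratio of 4.05. *HB40* was at 58.5 FPKM in pkr2-2;pkl-10, against 1.80 FPKM in Col-0, a ratio of 32.4 (24.2 to 44.6) and a log2 ratio of 5.02. The double mutant rested on about 2153 fragments of *HB21* and 2288 of *HB40*. The Col-0 values differ slightly between tables although they come from the same 82 and 45 estimated fragments, because each table was scaled on its own. *HB53* was at 0.193 FPKM in pkr2-2;pkl-10, about 7 fragments, and listed at 0 in Col-0, where 3 fragments per genotype would have given 0.128 FPKM. The counting interval of the double mutant, 0.0756 to 0.388 FPKM, includes that limit, so a difference was not detectable at this depth. Again 2 of the 3 genes passed the FPKM minimum and both were counted as higher, beside 6.20% of 19141 genes; 4.70% were counted as lower.

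The same 2 genes were higher when *PKL* was lost in the pkr2-2 background. *HB21* was at 49.7 FPKM in pkr2-2;pkl-10, against 3.64 FPKM in pkr2-2, a ratio of 13.6 (11.1 to 17.0) and a log2 ratio of 3.77. *HB40* was at 59.4 FPKM in pkr2-2;pkl-10, against 2.74 FPKM in pkr2-2, a ratio of 21.7 (16.8 to 28.3) and a log2 ratio of 4.44. *HB53* was at 0.196 FPKM in pkr2-2;pkl-10, against 0.0925 FPKM in pkr2-2, about 7 against 2 fragments, and the counting interval of its ratio of 2.12 ran from 0.404 to 20.9. A difference of *HB53* was therefore not detectable at this depth. Of the 3 genes 2 passed the FPKM minimum and both were counted as higher, beside 3.94% of 19094 genes, and 3.80% were counted as lower.

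Loss of *PKR2* alone went with small differences. *HB21* was at 3.10 FPKM in pkr2-2 and 2.53 FPKM in Col-0, a ratio of 1.22 whose counting interval, 0.900 to 1.67, includes 1. *HB40* was at 2.33 FPKM in pkr2-2 and 1.55 FPKM in Col-0, a ratio of 1.51 with a counting interval of 1.01 to 2.27, from about 62 and 45 fragments. That interval barely leaves out 1 and covers no variation between replicates. On the log2 scale the ratios were 0.29 and 0.59, while 5% of genes with at least 1 FPKM in both genotypes lay above 0.80. *HB53* was at 0.0787 FPKM in pkr2-2, about 2 fragments, and listed at 0 in Col-0. It did not pass the FPKM minimum. Neither *HB21* nor *HB40* was counted as changed in pkr2-2, beside 1.99% of 18124 genes counted as higher and 1.34% counted as lower.

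Between the double mutant and pkl-1 the levels of *HB21* and *HB40* hardly differed. *HB21* was at 55.7 FPKM in pkr2-2;pkl-10, against 55.7 FPKM in pkl-1, a ratio of 1.00 with a counting interval of 0.938 to 1.07. *HB40* was at 66.5 FPKM in pkr2-2;pkl-10, against 63.2 FPKM in pkl-1, a ratio of 1.05 with an interval of 0.989 to 1.12. *HB53* was at 0.220 FPKM in pkr2-2;pkl-10, against 0.0731 FPKM in pkl-1, a ratio of 3.00 with an interval of 0.572 to 29.6. *HB53* did not pass the FPKM minimum. Neither *HB21* nor *HB40* was counted as changed, beside 1.45% of 19040 genes counted as higher and 1.31% counted as lower. Levels of *HB21* and *HB40* were thus higher in pkr2-2;pkl-10 and pkl-1 than in pkr2-2 and Col-0. The first 2 genotypes could not be separated by counting error for either gene, nor the last 2 for *HB21*.

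Ratios for the loss of *PKL* were set side by side in both backgrounds, using comparisons that share no library. The log2 ratio of *HB21* was 3.77 for pkr2-2;pkl-10 over pkr2-2 and 4.07 for pkl-1 over Col-0, a difference of -0.30 with a counting interval of -0.74 to 0.14. For *HB40* the log2 ratios were 4.44 and 4.96 in the same order, a difference of -0.53 with an interval of -1.09 to 0.04. Both intervals include 0, and the *PKL* allele also differs between the backgrounds.

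The balance between *HB40* and *HB21* differed between the genotypes. Per unit length, *HB40* was at 1.19 times the level of *HB21* in pkr2-2;pkl-10 (counting interval 1.13 to 1.27) and 1.13 times in pkl-1 (1.06 to 1.21). It was at 0.754 times the level of *HB21* in pkr2-2 (0.538 to 1.05) and 0.612 times in Col-0 (0.416 to 0.891). *HB40* was thus the more abundant transcript where *PKL* was lost and the less abundant in Col-0, while in pkr2-2 the interval includes 1. The 2 annotated transcripts of *HB40* differ in length, and the split of its fragments between them enters its FPKM.

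Among genes with at least 1 FPKM in both genotypes, *HB21* and *HB40* were close to the upper end where *PKL* function differed. This filter leaves out genes near 0 in 1 genotype, which can have larger ratios. For pkl-1 over Col-0, 175 genes were counted as higher under it, against 703 with the minimum in at least 1 genotype. Of 16740 genes with at least 1 FPKM in both genotypes, *HB40* had the 3rd and *HB21* the 7th highest log2 ratio for pkl-1 over Col-0. For pkr2-2;pkl-10 over Col-0 they were 3rd and 12th of 16753, and for pkr2-2;pkl-10 over pkr2-2 they were 6th and 15th of 17091. For pkr2-2 over Col-0, *HB40* was 1488th and *HB21* 3766th of 16677, and for pkr2-2;pkl-10 over pkl-1 they were 8167th and 9987th of 17744. These comparisons share libraries, so the ranks are not independent of one another.

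**Figure D3:**
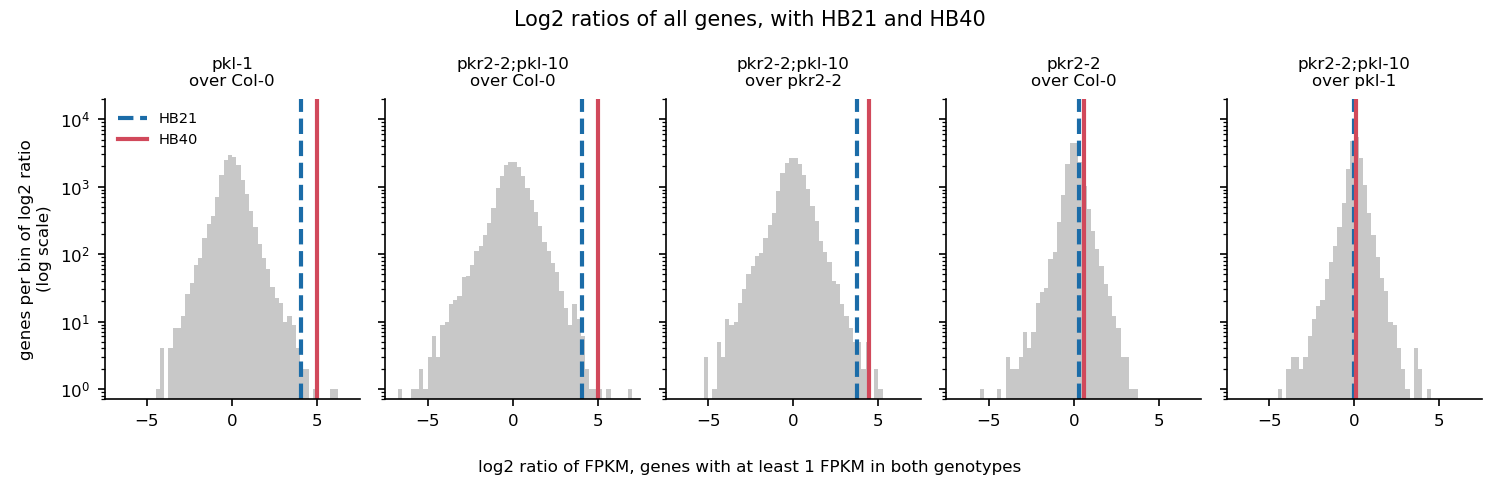
Distribution of log2 FPKM ratios over genes with at least 1 FPKM in both genotypes (grey bars, number of genes per bin on a log scale) in each of the 5 comparisons, with *HB21* (dashed) and *HB40* (solid). Both genes lie in the upper tail in the 3 comparisons in which *PKL* function differs, at log2 ratios from 3.77 to 5.02. In the other 2 they lie below the 95th percentile of genes, from 0.00 to 0.59, with *HB40* above 91.1% of genes for pkr2-2 over Col-0.

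Within the HD-ZIP I family, these ratios stood at the top, and most other expressed members were also on the higher side. Leaving out *HB21*, *HB40* and *HB53*, 10 of the other 14 genes passed the FPKM minimum for pkr2-2;pkl-10 over Col-0. All 10 had a log2 ratio above 0, 4 were counted as higher, beside 6.20% of all genes, and none as lower, beside 4.70%, and the median was 1.50, against 0.04 over all genes that passed. Those 4 were *HB7*, at 38.7 FPKM in pkr2-2;pkl-10 seeds and 6.39 in Col-0 (log2 ratio 2.60), *HB12* at 10.15 and 1.69 FPKM (2.59), *HB13* at 31.1 and 5.87 FPKM (2.41) and *HB54* at 130.4 and 29.2 FPKM (2.16). *HB7* and *HB12* are known as genes that abscisic acid and water deficit induce. In pkl-1 over Col-0, 9 of the 14 passed, 8 of them above 0. *HB7* was counted as higher, beside 3.77% of all genes, at 29.0 FPKM in pkl-1 against 6.01 in Col-0. The median was 0.95 there, against -0.02 over all genes. In pkr2-2 over Col-0, 9 passed and none was counted as changed, beside 1.99% of all genes higher and 1.34% lower. The median was 0.39, against 0.02 over all genes. In pkr2-2;pkl-10 over pkl-1 the median of the 10 that passed was 0.52, and *HB54* had the largest log2 ratio, 1.22. *HB21* and *HB40* thus had the smallest ratio and the third smallest in this comparison while having the largest for pkr2-2;pkl-10 and pkl-1 over Col-0, with *HB6* (log2 ratio 0.06) between them. *HB22* and *HB52* were listed at 0 in every genotype and table.

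As a share of the summed FPKM of the 17 family members, *HB21* and *HB40* together made up 22.9% in pkr2-2;pkl-10, 31.1% in pkl-1, 3.91% in pkr2-2 and 3.69% in Col-0. In the family, *HB40* ranked 2nd and *HB21* 4th in pkl-1, against 10th and 9th in Col-0 of the same table. *HB54*, *HB40* and *HB6* were nearly level in pkl-1, at 53.18, 52.89 and 52.87 FPKM. In the comparison of pkr2-2;pkl-10 with pkl-1, *HB40* ranked 3rd in pkl-1. *HB53* ranked 13th or 14th in every genotype. The family sum itself was 468 FPKM in pkr2-2;pkl-10 against 129 in Col-0, and 319.9 FPKM in pkl-1 against 121 in Col-0.

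The HD-ZIP IV family, whose members act mainly in the epidermis, is shown for contrast. Over Col-0, 1 of its genes was counted as lower in the double mutant. None was in pkl-1 or pkr2-2, beside 2.70% and 1.34% of all genes. For pkr2-2;pkl-10 over Col-0, 14 of its 16 genes passed the FPKM minimum and 12 of these had a log2 ratio below 0, with a median of -0.64, against 0.04 over all genes. *HDG3*, an imprinted endosperm gene expressed from the paternal allele, was the 1 counted as lower, beside 4.70% of all genes, at 2.47 FPKM in pkr2-2;pkl-10 seeds against 26.3 in Col-0. In pkl-1 over Col-0, 12 of 13 lay below 0 with a median of -0.59, against -0.02 over all genes. In pkr2-2 over Col-0 all 13 that passed lay below 0, with a median of -0.36, against 0.02 over all genes.

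**Figure D4:**
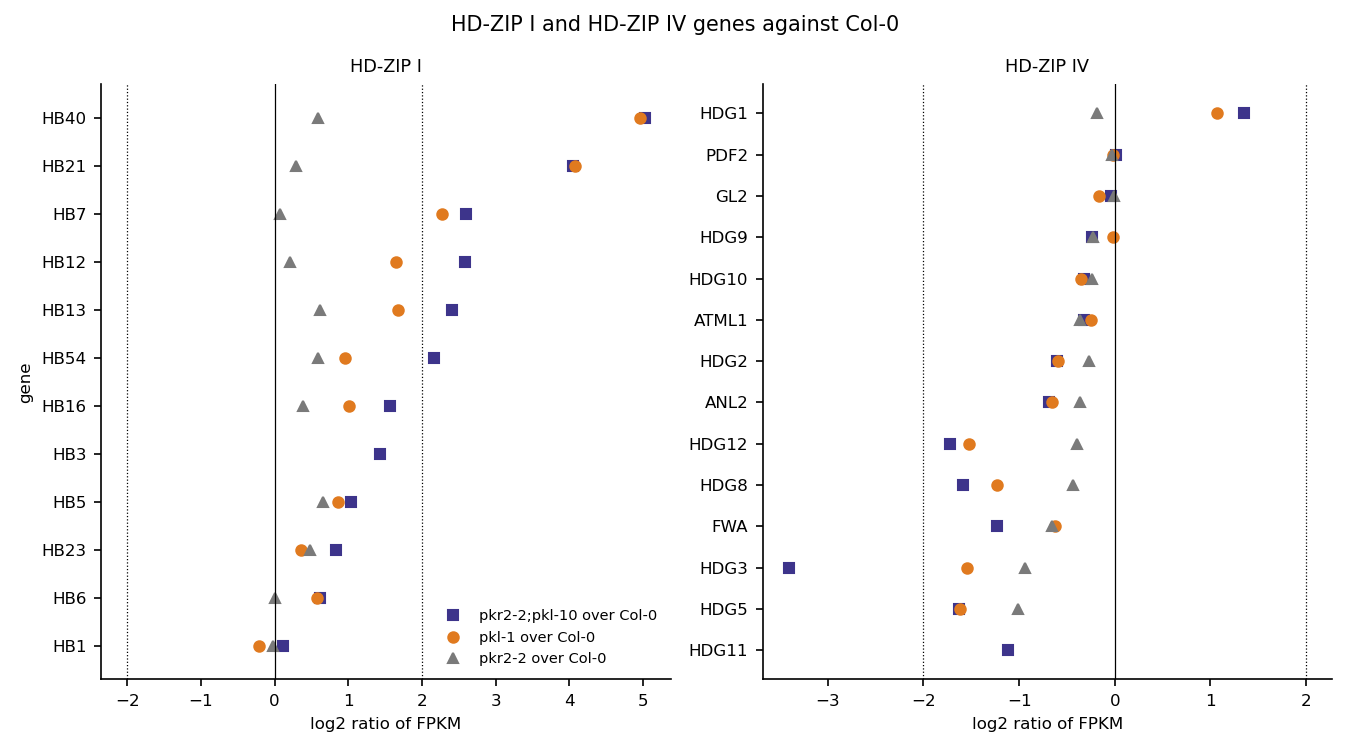
Log2 FPKM ratio over Col-0 of each HD-ZIP I gene (left) and HD-ZIP IV gene (right) that passed the FPKM minimum, in pkr2-2;pkl-10 (squares), pkl-1 (circles) and pkr2-2 (triangles); dotted lines mark log2 ratios of 2 and -2. *HB40* and *HB21* stand above 4 in pkr2-2;pkl-10 and pkl-1 and under 1 in pkr2-2, and *HDG3* reaches -3.41 in pkr2-2;pkl-10.

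*BRC1*, known to activate the 3 genes in buds, was lower than in Col-0 in all 3 mutants. Its part in the levels of *HB21* and *HB40* in seeds was not tested. *BRC1* was at 1.07 FPKM in pkr2-2;pkl-10 against 4.33 in Col-0 (log2 ratio -2.01), at 2.75 FPKM in pkl-1 against 4.07 in Col-0 (-0.56), and at 3.02 FPKM in pkr2-2 against 3.71 in Col-0 (-0.30). Its paralog *BRC2* was at 4.87 FPKM in pkr2-2;pkl-10 against 2.96 in Col-0 (0.72). *NCED3*, the known target in buds, stayed under 1 FPKM in all 3 comparisons with Col-0, at 0.959 FPKM in pkr2-2;pkl-10 against 0.421 in Col-0 and at 0.703 FPKM in pkl-1 against 0.396 in Col-0. *JUB1*, a NAC-type factor, did not exceed 0.163 FPKM in any table. *DRM1*, a transcript known from dormant buds, was at 4.60 FPKM in pkr2-2;pkl-10 against 36.1 in Col-0 and at 4.00 FPKM in pkr2-2 against 31.0 in Col-0. The value for pkl-1 was 18.0 FPKM against 33.9 in Col-0, so *DRM1* differed most where *PKR2* was lost, unlike *HB21* and *HB40*.

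Strigolactone, a branch-inhibiting hormone, acts upstream of *BRC1*, and genes of its synthesis and signalling were examined. *MAX1*, a cytochrome P450 of strigolactone synthesis, was at 26.7 FPKM in pkr2-2;pkl-10 against 4.15 in Col-0 (log2 ratio 2.69) and at 17.7 FPKM in pkl-1 against 3.90 in Col-0 (2.18). *MAX3*, a carotenoid cleavage dioxygenase of the same route, had 1.08 FPKM in pkr2-2;pkl-10 and 0.679 FPKM in pkl-1, while it was listed at 0 in pkr2-2 and in Col-0; it passed the FPKM minimum in the double mutant and not in pkl-1. *MAX4*, a further carotenoid cleavage dioxygenase of that route, stayed under 1 FPKM, at 0.863 FPKM in pkr2-2;pkl-10 against 0.0761 in Col-0 and at 0.509 FPKM in pkl-1 against 0.0715 in Col-0, and was not counted. *SMXL6* and *SMXL7*, repressors that strigolactone signalling removes, had log2 ratios of 1.26 and 1.31 for pkr2-2;pkl-10 over Col-0. *D14*, the strigolactone receptor, was at 111.9 FPKM in pkr2-2;pkl-10, against 105.7 FPKM in Col-0. Of the 13 branching genes, 9 passed the FPKM minimum for pkr2-2;pkl-10 over Col-0, with 2 counted as higher (*MAX1* and *MAX3*), 2 as lower (*BRC1* and *DRM1*) and a median log2 ratio of 0.72. Over all genes, 6.20% were higher and 4.70% lower, with a median of 0.04. In pkl-1 over Col-0, 8 passed, with *MAX1* higher and none lower, beside 3.77% and 2.70% of all genes, and a median of 0.60, against -0.02 over all genes.

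Abscisic acid is the hormone through which the 3 genes act in buds, and those of its response genes that passed the FPKM minimum differed less than *HB21* and *HB40* in pkr2-2;pkl-10 and in pkl-1 over Col-0. Of 17 listed, 15 passed the FPKM minimum for pkr2-2;pkl-10 over Col-0, none was counted as higher and 2 as lower, beside 6.20% and 4.70% of all genes, with a median of 0.84, against 0.04 over all genes. The 2 lower genes were *ABI3* and *ABI4*, transcription factors of seed maturation and germination. *ABI3* was at 0.124 FPKM in pkr2-2;pkl-10 against 1.45 in Col-0 and at 0.175 FPKM in pkl-1 against 1.36 in Col-0. *ABI4* was at 0.234 FPKM in pkr2-2;pkl-10 against 1.15 in Col-0. *ABI5*, a bZIP factor of the same response, was at 14.7 FPKM in pkr2-2;pkl-10 against 6.55 in Col-0 (log2 ratio 1.16). In pkl-1 over Col-0, *ABI3* alone of the 15 genes that passed was counted as lower, beside 2.70% of all genes, with a median of 0.76, against -0.02 over all genes. In pkr2-2 over Col-0 none of 15 was counted as changed, beside 1.99% of all genes higher and 1.34% lower.

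**Figure D5:**
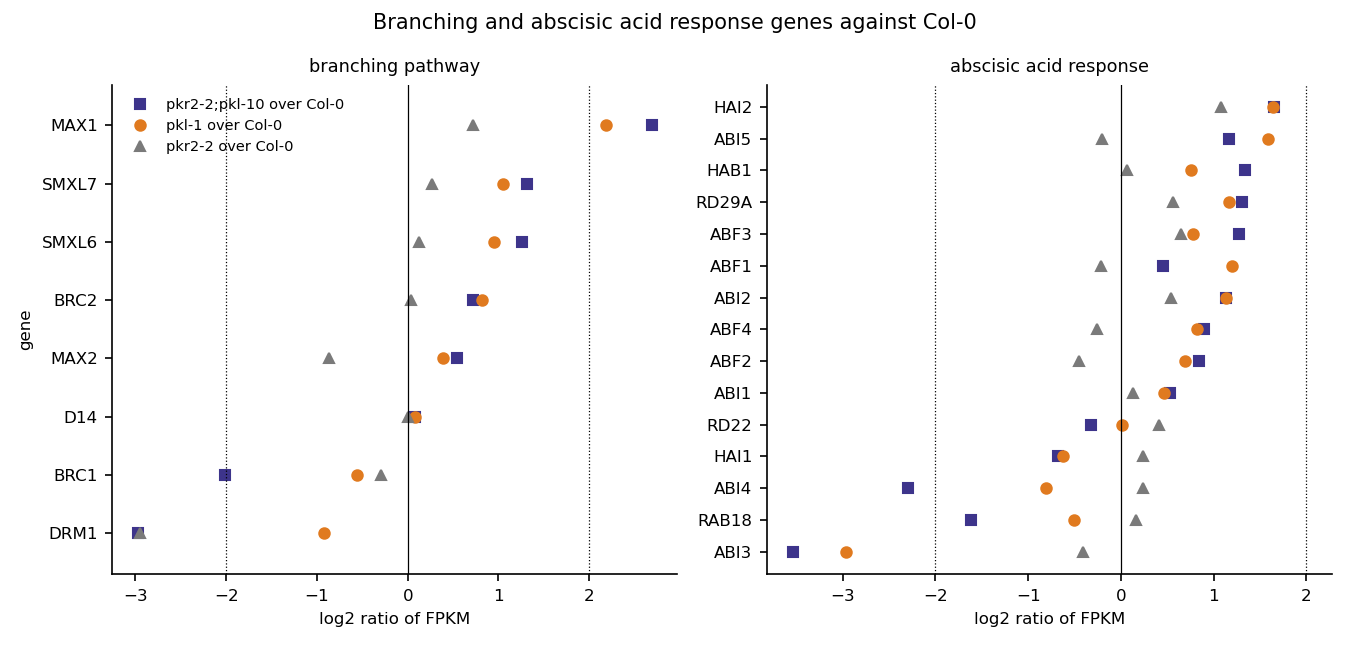
Log2 FPKM ratio over Col-0 of branching genes (left) and abscisic acid response genes (right) that passed the FPKM minimum and were above 0 in both genotypes, in pkr2-2;pkl-10 (squares), pkl-1 (circles) and pkr2-2 (triangles); dotted lines mark log2 ratios of 2 and -2. *MAX1* lies to the right in pkr2-2;pkl-10 and pkl-1, *DRM1* to the left wherever *PKR2* is mutated, and *ABI3* to the left in pkr2-2;pkl-10 and pkl-1.

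The genes whose 5 log2 ratios were closest to those of *HB21* were found among 17288 genes with at least 1 FPKM in some genotype of every table, with a pseudocount of 0.1 FPKM. The distance is the square root of the summed squared differences over the 5 ratios, which share libraries. The nearest to *HB21* were *BFN1*, a bifunctional nuclease (distance 0.541), *CEP2*, a cysteine endopeptidase (0.631), *KTI1*, a Kunitz-type trypsin inhibitor (0.678), *CEP1*, a cysteine endopeptidase (0.689), and AT5G64190 (0.771). *BFN1* was at 80.5 FPKM in pkl-1 against 6.44 in Col-0, and *CEP1* was at 272 FPKM in pkl-1 against 21.5 in Col-0. *HB40* was the 16th nearest to *HB21*, at a distance of 1.46. The nearest to *HB40* were AT5G39520 (1.36), *HB21* (1.46), AT1G62510 (1.51), *NAP*, a NAC-type factor known from leaf senescence (1.71), and AT2G04805 (1.72). AT1G62510 was at 83.3 FPKM in pkl-1 against 1.15 in Col-0. For *HB53* no such list is given, since its values rest on at most 7 fragments.

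The 2 nearest annotated genes on each side were examined for every member. None was counted as higher in any comparison, beside 1.45% to 6.20% of all genes. AT2G18530, AT2G18540, AT4G09375 and *UGT72E2* stayed under 1 FPKM in every genotype and so could not be counted. With so few genes, nothing is read from these counts. *GBF1*, a bZIP factor whose gene lies 1964 nt from *HB40*, was at 17.2 FPKM in pkr2-2;pkl-10 against 10.5 in Col-0 (log2 ratio 0.70) and at 17.5 FPKM in pkl-1 against 9.92 in Col-0 (0.82). On the other side of *HB40*, AT4G36750, at a distance of 8077 nt, was at 35.3 FPKM in pkr2-2;pkl-10, against 37.5 FPKM in Col-0. Near *HB21*, AT2G18530 was listed at 0 in every genotype and AT2G18540 stayed under 0.1 FPKM. AT2G18560, 7789 nt from *HB21*, was counted as lower in pkr2-2;pkl-10 over Col-0, beside 4.70% of all genes, at 0.250 FPKM against 1.18 (log2 ratio -2.23). Next to *HB53*, AT5G66710 lies 703 nt away and was at 1.60 FPKM in pkr2-2;pkl-10 against 2.35 in Col-0 (-0.55).

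Markers of seed compartments differed between the same genotypes. The 4 embryo markers summed to 6.62 FPKM in pkr2-2;pkl-10 against 103.6 in Col-0, to 14.8 FPKM in pkl-1 against 97.4 in Col-0, and to 70.8 FPKM in pkr2-2 against 88.8 in Col-0. *LEC1*, a regulator of embryo development, made up most of these sums, at 5.45 FPKM in pkr2-2;pkl-10 against 99.9 in Col-0. The 4 endosperm markers summed to 33.6 FPKM in pkr2-2;pkl-10 against 74.8 in Col-0 and to 36.1 FPKM in pkl-1 against 70.3 in Col-0, with *PHE1*, *FIS2* and *MINI3* lower than in Col-0 and *AGL62* higher in both. The 5 seed coat markers summed to 1542 FPKM in pkr2-2;pkl-10 against 1286 in Col-0 and to 1476 FPKM in pkl-1 against 1209.7 in Col-0. Of the 3 shoot and silique wall markers, *FUL* was at 6.07 FPKM in pkr2-2;pkl-10 against 0.749 in Col-0, at 3.82 FPKM in pkl-1 against 0.706 in Col-0 and at 2.51 FPKM in pkr2-2 against 0.644 in Col-0, while *RBCS1A* and *LHCB1.3* were lower in all 3 mutants. No marker was listed at 0 in any genotype. The part of these differences in the levels of *HB21* and *HB40* was not tested.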

How the data were processed

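Seed mRNA of 4 genotypes was sequenced with 2 biological replicates each, 8 samples in all. Per the paper's methods, the authors removed reads under a PHRED quality of 30 with Fastp 0.20.1, mapped the rest to TAIR10.1 with TopHat2 2.1.1 and computed FPKM with Cufflinks 2.2.1.3 under geometric normalization. The Col-0 values differ between tables, so each table was taken as scaled on its own. The 5 deposited tables hold 1 FPKM value per genotype, pooled over replicates by the authors; their columns of fold changes, test statistics, p-values and q-values were not used. Of columns with values per sample, 0 were left out.

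Log2 ratios were recomputed within a table, without a pseudocount. Genes with at least 1 FPKM in at least 1 genotype and an absolute log2 ratio above 2 were counted, including those listed at 0 in the other genotype. Fragment numbers were estimated from the lowest FPKM steps of single-transcript genes of 600 to 5000 nt, with transcript length reduced by 300 nt, and 95% intervals are exact Poisson or conditional binomial intervals that cover counting error only; intervals of a difference between 2 log2 ratios use a normal approximation. The limit of detection was set at 3 fragments. Of 38209 genes, 37940 matched the RefSeq annotation of TAIR10.1, from which sequences were read. The fragment estimate and the counting rule were run on simulated single-transcript genes built with the same formula. This run cannot show whether that formula holds for the real data. The counting rule was checked only for genes of at least 100 expected fragments, more than *HB21* and *HB40* had in Col-0.

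The 3 genes and all gene lists were chosen with earlier results of these data known. Genes named are the 3 members, *PKL*, *PKR2*, genes of the lists, the 5 genes nearest in log2 ratios and the 2 nearest neighbours on each side. Alternatives were pseudocounts of 0.1 and 1 FPKM, other FPKM filters, a log2 threshold of 1, centring on the median, and ratios rebuilt from other tables. Scripts ran under Python 3.11.15 with scipy 1.17.1, pandas 2.3.3, matplotlib 3.10.9 and numpy 2.4.6.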

Additional observations from a re-analysis of the deposited data

How the results depend on the processing

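With 1 pooled value per genotype and table, no result here carries an error between replicates, and leaving out a replicate was not possible. No paired analysis was possible because the tables hold values pooled over both replicates. Depth limits *HB53*, whose values rest on at most 7 fragments, and the Col-0 levels of *HB40*, which rest on about 45.

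Of 40 alternative values of the log2 ratios of the 3 genes, 34 stayed within the counting interval of the reported ratio. The other 6 came with a pseudocount of 1 FPKM, under which *HB21* had log2 ratios of 3.66 (pkl-1 over Col-0), 3.66 (pkr2-2;pkl-10 over Col-0) and 3.45 (pkr2-2;pkl-10 over pkr2-2), and *HB40* had 4.32, 4.41 and 4.01 in the same comparisons, all still past 2. Centring moved no gene by more than the median of all genes, which lay within 0.05 of 0. The intervals of *HB53* were so wide, on the log2 scale from -1.31 to 4.39 for pkr2-2;pkl-10 over pkr2-2, that its alternatives could hardly leave them. For *HB53* over Col-0 no alternative log2 ratio is given, since it was listed at 0 in Col-0. The ratios rebuilt from other tables could be made only for pkr2-2;pkl-10 over pkr2-2 and over pkl-1.

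The counts of all genes depended on the filter and threshold. As reported, the numbers of genes higher and lower were 703 and 503 for pkl-1 over Col-0, 1186 and 900 for pkr2-2;pkl-10 over Col-0, 753 and 725 for pkr2-2;pkl-10 over pkr2-2, 360 and 243 for pkr2-2 over Col-0 and 276 and 250 for pkr2-2;pkl-10 over pkl-1. With a pseudocount of 1 FPKM they were 213 and 189 for pkl-1 over Col-0, 385 and 442 for pkr2-2;pkl-10 over Col-0, 234 and 318 for pkr2-2;pkl-10 over pkr2-2, 99 and 86 for pkr2-2 over Col-0 and 76 and 98 for pkr2-2;pkl-10 over pkl-1. Without a filter they were 2671 and 1400 for pkl-1 over Col-0, 3584 and 1687 for pkr2-2;pkl-10 over Col-0, 2752 and 1567 for pkr2-2;pkl-10 over pkr2-2, 1831 and 1171 for pkr2-2 over Col-0 and 1762 and 1090 for pkr2-2;pkl-10 over pkl-1. With at least 1 FPKM in both genotypes they were 175 and 168 for pkl-1 over Col-0, 336 and 375 for pkr2-2;pkl-10 over Col-0, 211 and 301 for pkr2-2;pkl-10 over pkr2-2, 52 and 49 for pkr2-2 over Col-0 and 33 and 48 for pkr2-2;pkl-10 over pkl-1. With a log2 threshold of 1 they were 1972 and 1634 for pkl-1 over Col-0, 3098 and 2231 for pkr2-2;pkl-10 over Col-0, 2221 and 1905 for pkr2-2;pkl-10 over pkr2-2, 1042 and 657 for pkr2-2 over Col-0 and 884 and 660 for pkr2-2;pkl-10 over pkl-1. With a pseudocount of 0.1 FPKM or with centring, all counts stayed within 1.5 times those reported.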

Other observations

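Further homeodomain-leucine zipper families were measured beside the class that holds *HB21*, *HB40* and *HB53*. All 5 HD-ZIP III genes, known from vascular and leaf polarity patterning, were above Col-0 in pkr2-2;pkl-10. Their median log2 ratio was 1.43, against 0.04 over all genes that passed the FPKM minimum. None was past 2, beside 6.20% of all genes counted as higher and 4.70% as lower. *HB15* was at 3.77 FPKM in pkr2-2;pkl-10 against 0.999 in Col-0, and *HB8* at 3.55 FPKM against 1.32. In pkl-1 over Col-0 their median was 0.71, against -0.02 over all genes, and *REV* was at 4.36 FPKM in pkl-1 against 4.65 in Col-0. Of the 10 HD-ZIP II genes, known from shade avoidance, 9 passed the FPKM minimum in pkr2-2;pkl-10 over Col-0. Their median was 0.66, against 0.04 over all genes. *HAT1*, at 15.5 FPKM in pkr2-2;pkl-10 against 3.45 in Col-0, and *HB18*, at 1.40 FPKM against 0.306, were past 2, beside 6.20% of all genes. *HB4* was at 1.18 FPKM in pkr2-2;pkl-10 against 2.72 in Col-0.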
